A study of Mus musculus with 10 samples.

Results

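The sites described here lie at genes that set T cell metabolism: the hypoxia factor HIF-1 and the enzymes that mark it for destruction, the kinase complex mTORC1 with its antagonist AMPK, and MYC with its repressive partners. A site of the deposited ATAC-seq table belonged to the set when its nearest protein-coding gene body, at most 50 kb away and counted as 0 when overlapping, was 1 of 10 genes. Of 39657 sites, 65 met this rule, and all 65 were 201 bp wide. Rptor had 18 sites, Hif1a 15, Egln3 11, Mxi1 8, Arnt and Myc 4 each, Egln1 and Prkaa1 2 each, and Mxd1 1. Mtor had no site: a site 0.691 kb from its body (chr4:148448582-148557685) lay inside Exosc10 and belongs to that gene under the rule.

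ATAC-seq measures where a transposase can enter chromatin, so a higher value marks more accessible DNA. The cells were naive mouse CD4+ T cells from spleen and lymph nodes, cultured toward the Th17 fate for 3 days with anti-CD3 (5 μg/mL, plate-bound), anti-CD28 (1 μg/mL), IL-6 (30 ng/mL), TGFβ (2 ng/mL) and anti-IFNγ (5 μg/mL). Mice carried floxed alleles of pyruvate dehydrogenase (PDH, written PDHfl/fl in the protocol and PHD-fl/fl in the sample titles), and the KO mice also carried CD4 Cre, which the WT mice lacked. Cre under Cd4 regulatory sequence acts in the thymus, also in T cells that later become CD8+, so the deletion precedes the culture. Cells of either genotype were left untreated (3 KO and 3 WT libraries) or were cultured with 10 mM sodium acetate (2 KO and 2 WT libraries). No label names the animal behind a library, so p-values measure the spread between libraries, which may be technical.

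HIF-1 is a dimer of an oxygen-regulated subunit, encoded by Hif1a, and a constant partner, encoded by Arnt, and it switches on glycolytic genes. The prolyl hydroxylases encoded by Egln1 and Egln3 (also called PHD2 and PHD3) use oxygen to mark HIF-1 alpha for degradation, and both are known targets of HIF-1 in turn. MYC pairs with MAX to drive growth and metabolic genes, while the proteins encoded by Mxd1 and Mxi1 compete for MAX and repress. mTORC1 is the mTOR kinase with its adaptor RAPTOR, encoded by Rptor, and it raises translation of HIF-1 alpha and MYC. AMPK, whose catalytic subunit alpha 1 is encoded by Prkaa1, restrains mTORC1 when energy is low. In Th17 cells HIF-1 and mTORC1 are known to favour glycolysis and the Th17 programme.

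The promoters of 4 genes are shown because each holds the core of the HIF response element and overlaps a site (as does 1 of the Mxi1 windows, not printed), with the 250 bases before the listed start as given by RefSeq on GRCm38.p6. Capitals mark ACGTG on either strand, and CACGTG (the E-box bound by MYC and MAX, which contains the core on both strands).
Hif1a chr12:73907617-73907866 (plus strand): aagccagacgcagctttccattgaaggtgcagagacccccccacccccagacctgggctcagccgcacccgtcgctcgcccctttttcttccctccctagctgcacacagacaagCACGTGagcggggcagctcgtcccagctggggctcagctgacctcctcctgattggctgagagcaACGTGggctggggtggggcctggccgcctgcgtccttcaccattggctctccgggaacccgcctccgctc
Egln1 chr8:124949255-124949504 (minus strand): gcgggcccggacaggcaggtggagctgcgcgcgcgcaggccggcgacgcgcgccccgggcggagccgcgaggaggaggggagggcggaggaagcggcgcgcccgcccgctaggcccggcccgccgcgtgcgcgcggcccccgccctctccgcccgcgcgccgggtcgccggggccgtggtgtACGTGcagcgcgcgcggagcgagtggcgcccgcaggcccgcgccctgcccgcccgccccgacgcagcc
Rptor chr11:119602655-119602904 (plus strand): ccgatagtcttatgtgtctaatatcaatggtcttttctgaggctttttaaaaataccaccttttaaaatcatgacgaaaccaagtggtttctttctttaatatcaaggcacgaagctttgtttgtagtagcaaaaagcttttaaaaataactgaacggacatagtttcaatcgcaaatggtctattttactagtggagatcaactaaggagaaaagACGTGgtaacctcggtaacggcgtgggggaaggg
Egln3 chr12:54203875-54204124 (minus strand): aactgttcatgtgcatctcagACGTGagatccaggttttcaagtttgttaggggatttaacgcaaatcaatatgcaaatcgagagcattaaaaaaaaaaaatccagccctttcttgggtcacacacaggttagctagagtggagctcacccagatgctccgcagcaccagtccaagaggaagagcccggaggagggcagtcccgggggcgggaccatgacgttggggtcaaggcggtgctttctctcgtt
In Hif1a the E-box lies 135 bases before the start, with another core 70 bases before it, and the core lies 68 bases before the start in Egln1, 34 in Rptor and 229 in Egln3. The matches of Hif1a, Egln1 and Rptor were inside a site, and that of Egln3 was outside it. Of 10 genes 9 matched the promoter table (not Myc), with 11 windows, of which 8 overlapped a site and 6 held the core. Of the 32851 windows of this length in the table, 16.6% held ACGTG and 6.02% CACGTG. The AP-1 motif TGANTCA (in 6.75%) was in none of the 11 windows, and the ETS motif CCGGAAG (in 6.91%), searched like the others on both strands, was in the Mtor window alone, 237 bases before its start. A match is a description of the sequence and not evidence of binding.

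Values are signal as the authors deposited it, and every column holds whole multiples of 1 step. Taking that step as 1 read, which no label or header states, reads in all sites ranged from 3500172 to 13356560 per library and reads at the 65 sites from 5189 to 19579, the smallest at any of them in 1 library being 4. The 65 sites held 0.137 to 0.142% of all signal in the untreated KO libraries and 0.145 to 0.157% in the other 7. Column names start with ATAC1 or ATAC2: all untreated KO libraries are ATAC1, all acetate libraries ATAC2, and untreated WT has 2 ATAC1 libraries and 1 ATAC2 library. That ATAC2 library and 1 KO acetate library have column numbers that match no sample title, so they are listed last in their group. The labels do not say what the prefix stands for. The Th17 markers Rora, Il17a, Il17f, Il23r, Ccr6, Il21 and Maf each had a site, as did 4 of 4 CD4 T cell markers, while neither CD8 gene, none of Cd79a, Cd79b and Ms4a1 of B cells, and none of Csf1r, Lyz2 and Cd68 of myeloid cells had one. Because the table is named as one of differential sites, a gene without a site need not be closed, nor its cell type absent. The CD4 markers had 21 sites, 6 higher and 15 lower in untreated KO. The 8 listed Th17 genes had 69 sites, 4 higher and 63 lower, beside 9.07% and 89.6% of the whole table. With acetate in both genotypes, limma called 6 of the 21 CD4 marker sites higher in KO, by log2 up to 4.39. Without acetate the largest rise at these 21 sites was 4.72. Only the KO mice carried CD4 Cre, with its Cd4 regulatory sequence, and the part of that construct in these values was not tested. Over all sites it called 9 higher in that comparison. Among 5 myeloid markers 2 had sites, and limma called 1 of the 5 sites higher and 4 lower without acetate. Of 3 NK markers 2 had sites (8 sites, 0 and 8), as had 3 of 3 gamma-delta T cell markers (7 sites, 2 and 5). The whole table, with 9.07% called higher and 89.6% lower, is the background for each of these counts and for Pax5. At Pax5, a B cell marker gene with sites, 3 of 4 sites rose in untreated KO, and the part of other cell types in the results was not tested. In such bulk samples fewer cells of a type and less signal per cell cannot be told apart.

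The first comparison asks how losing PDH changes chromatin at these genes in untreated cells. As deposited, 62 of the 65 sites were lower in KO, 2 were higher and 1 was not called (limma, adjusted p under 0.05), beside 89.6% lower and 9.07% higher over all sites. Values of the 2 groups did not overlap at 53 sites in the lower direction (80.9% of all sites) and at 2 in the higher one (8.61%). The median log2 difference was -0.92 over the 65 sites and -0.84 over all sites, so most of the drop is a shift of the whole table and depends on scaling: the table's median became -0.04 with median-of-ratios factors, -0.13 with total signal and 0.00 with cyclic loess. Sites called lower then numbered 5, 8 and 2 of 65 (3.34%, 5.74% and 2.41% of all sites), and the 2 higher sites were called with each of the 3 scalings (9.63%, 9.38% and 9.35% of all sites called higher). With the column-name prefix as a term, 63 sites were lower and 1 higher (88.9% and 8.89%). The table is named as one of differential sites and is taken as selected on these samples, so these counts are not independent evidence of a difference.

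**Figure D1:**
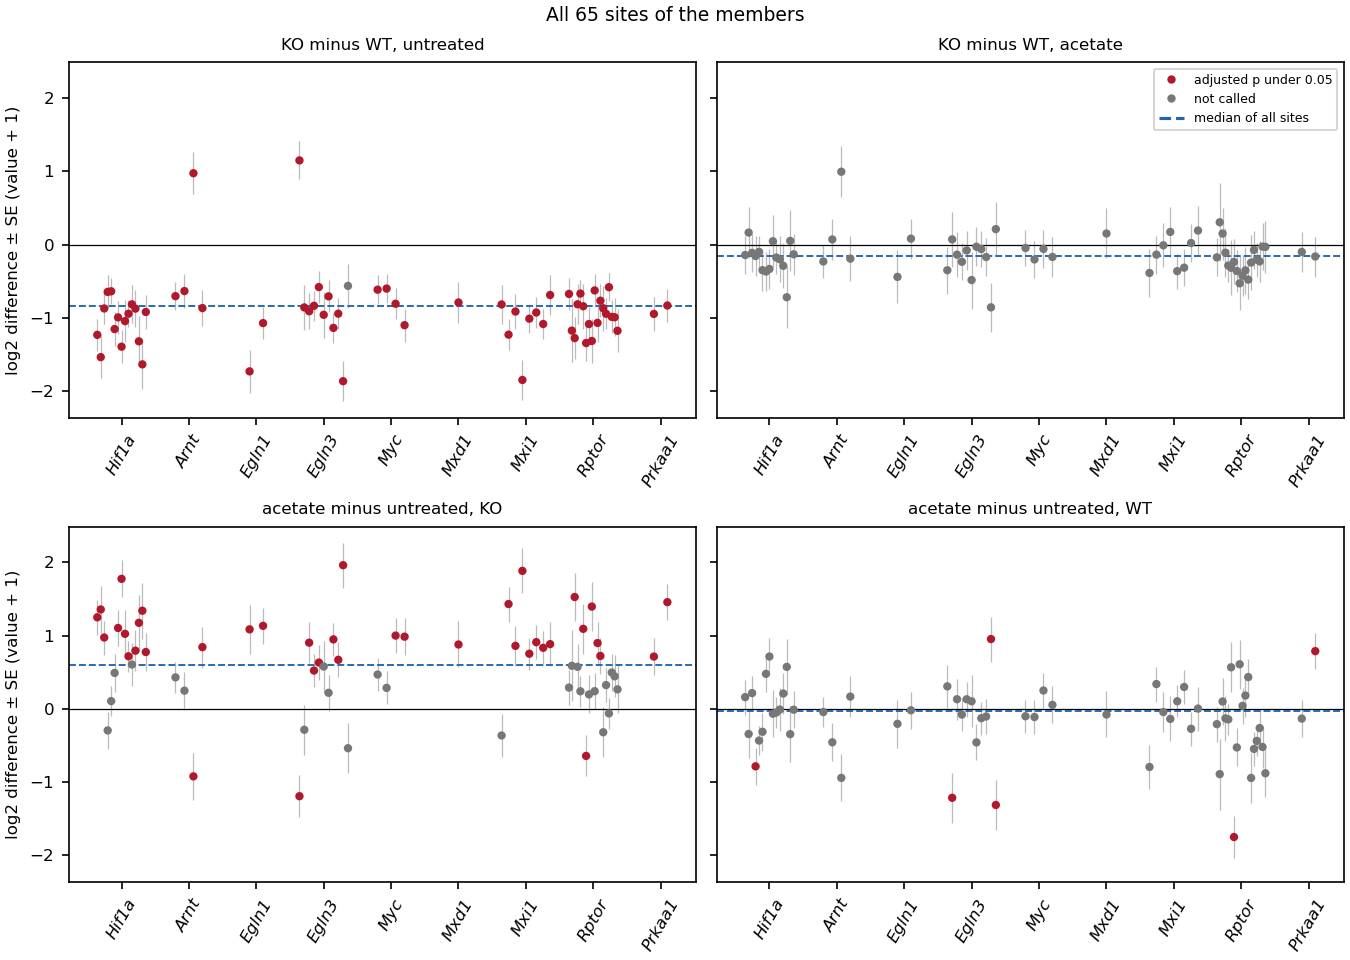
Log2 difference ± SE of log2(value + 1) at each of the 65 sites (points, in genomic order within a gene), for KO minus WT untreated, KO minus WT with acetate, and acetate minus untreated in KO and in WT. Red points had an adjusted p under 0.05 and the dashed line is the median of all 39657 sites, and untreated KO sites lie around that line of -0.84 apart from 2 points above 0. The drop below 0 rests on the deposited scale, since with cyclic loess 2 sites were called lower.

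Hif1a, the oxygen-regulated subunit, was lower in untreated KO at 15 of 15 sites as deposited (89.6% of all sites). With cyclic loess 1 of the 15 was called, again lower (2.41% of all sites). Its strongest site, 19.6 kb upstream of the listed start (chr12:73888118-73888318), read 1259.9, 1001 and 866 in WT and 614, 626 and 752 in KO. All 3 KO libraries were below all 3 WT libraries, with a log2 difference of -0.64 ± 0.18 (adjusted p = 0.000841), which turned to 0.02 with cyclic loess. At the promoter site (chr12:73907723-73907923), the one that holds the E-box shown above, WT read 975, 711 and 978 and KO 375, 501 and 506, a difference of -0.94 ± 0.19 as deposited. The groups were again apart, and after subtraction of the table's median -0.11 was left. The Hif1a site that stayed lower with cyclic loess lay 3.11 kb upstream of that start, inside the annotated gene body (chr12:73904654-73904854). It read 152, 127 and 143 in WT and 52.1, 50.4 and 55.6 in KO, so that each WT library stood above every KO library. Its difference was -1.39 ± 0.23 (adjusted p = 1.82e-07) as deposited, and -0.52 ± 0.15 (adjusted p = 0.034) with cyclic loess.

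Arnt, the constant partner, had sites in both directions. Its promoter site (chr3:95434234-95434434), the strongest of 4, fell from 842, 707 and 743 in WT to 390.5, 529.6 and 493 in KO, a log2 difference of -0.70 ± 0.19, and its median-of-ratios value was 0.10. The site 24.7 kb inside the gene (chr3:95458949-95459149) went the other way, with 95.4, 96.2 and 114 in KO and 57.4, 83.4 and 27.6 in WT. Every KO library was above every WT library, although the WT libraries spread widely and the ATAC2 one was the lowest. The difference was 0.98 ± 0.29 (adjusted p = 0.0013), and 1.90 with cyclic loess. It was 0.54 ± 0.29 (adjusted p = 0.0592) with the column-name prefix as a term. Without the ATAC2 library of untreated WT, which rests on the same libraries for this difference, it was 0.54 (adjusted p = 0.0536). In a fit of the ATAC1 libraries alone, again with the same libraries for this difference, limma called the site higher.

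Egln1, the main HIF hydroxylase, had its strongest site at the promoter (chr8:124949309-124949509, 55 bases outside the annotated body), with 279.7, 241 and 608 in WT and 160.1, 180.3 and 151 in KO. The KO libraries were the lowest and the ATAC2 library of WT stood far above the other WT libraries, and the difference was -1.07 ± 0.22 (adjusted p = 3.16e-05). It was not called with median-of-ratios factors (-0.27), total signal (-0.36) or cyclic loess (-0.25). Inside the gene, 4.59 kb from the start (chr8:124944559-124944759), WT read 69.9, 66.3 and 94.0 and KO 19.7, 30.8 and 17.7, with no overlap and a difference of -1.73 ± 0.30. This site stayed lower with median-of-ratios factors and total signal, and with cyclic loess the value was -0.83 ± 0.29 (adjusted p = 0.0897). It also overlaps the lncRNA Gm46060, and accessibility has no strand, so the site cannot be given to either gene.

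Egln3, a hydroxylase strongly induced by hypoxia, had the widest spread of the 9 genes, from -1.87 to 1.15. Of its 11 sites 9 were lower, 1 was higher and 1 was not called, beside 89.6% lower and 9.07% higher over all sites. The promoter site (chr12:54203791-54203991) was its strongest, with 698, 499 and 541 in WT and 241, 229.8 and 317 in KO, groups apart, a difference of -1.14 ± 0.20 and -0.38 ± 0.13 (adjusted p = 0.0621) with cyclic loess. The lowest difference of all 65 sites lay 20.2 kb upstream (chr12:54224014-54224214), with 91.2, 75.3 and 61.9 in WT and 16.5, 16.8 and 28.4 in KO. Here no KO library came near the WT range, and the difference of -1.87 ± 0.28 (adjusted p = 1.32e-08) stayed at -0.94 ± 0.20 (adjusted p = 0.00232) with cyclic loess. The single rise lay beyond the other end of the gene, 59.3 kb downstream of the start and 34.3 kb outside the body (chr12:54144463-54144663), with the lncRNA Gm35818 2.55 kb away as the nearest annotated gene of any kind. It read 105, 105 and 161 in KO and 57.4, 56.3 and 48.6 in WT, all KO libraries above all WT libraries. The difference was 1.15 ± 0.26 (adjusted p = 6.67e-05), called in all 20 alternatives run, from 0.87 to 2.08. The site not called (chr12:54252296-54252496, 48.5 kb upstream) read 116, 95.4 and 35.4 in WT and 52.6, 39.2 and 57.9 in KO, where the WT library of ATAC2 was below all KO libraries. Its difference was -0.56 ± 0.31, and without that library -1.08 (adjusted p = 0.000645).

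**Figure D2:**
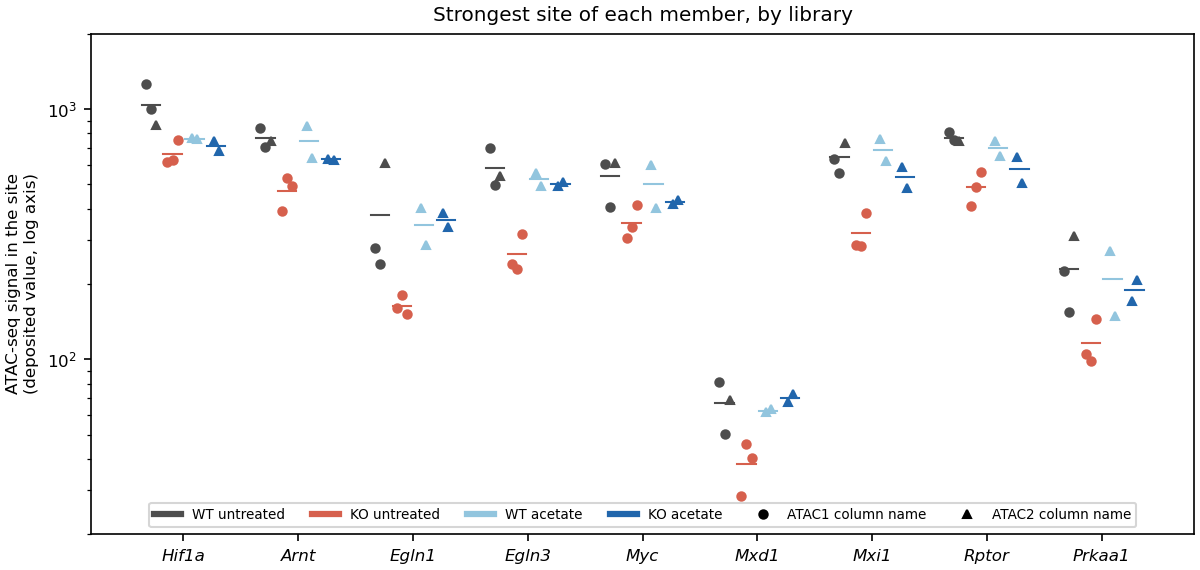
Deposited signal (log axis) at the strongest site of each of the 9 genes with a site, 1 point per library, circles for ATAC1 and triangles for ATAC2 column names, bars at group means. Untreated KO libraries (red) are the lowest group at each gene on this scale. With acetate, KO libraries overlap the untreated KO range at Hif1a and Rptor and lie above it at the other 7 genes.

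At Myc all 4 sites were lower in untreated KO as deposited (89.6% of all sites). With cyclic loess 0 of the 4 were called, and limma gave a median of 0.08. The strongest, at the gene's 5′ end (chr15:61985388-61985588), read 601, 407 and 609 in WT and 305, 337 and 414 in KO. The KO library with 414 lay above the lowest WT library, so the groups overlapped, and the difference was -0.60 ± 0.20 (adjusted p = 0.00412), or 0.15 with cyclic loess. The largest drop of the 4, -1.10 ± 0.23, was at the site farthest out, 47.4 kb from the body and at the edge of the lncRNA Pvt1 (chr15:62037808-62038008), with 216, 121 and 207 in WT and 74.0, 71.9 and 100.5 in KO, groups apart. Of the repressors, Mxd1 had 1 site, within the gene 1.89 kb from its start (chr6:86667165-86667365), at 81.2, 50.2 and 68.5 in WT and 28.5, 45.8 and 40.2 in KO. Groups did not overlap, the difference was -0.79 ± 0.28 (adjusted p = 0.00617), and with cyclic loess it turned to 0.13. Without KO untreated 1 it was -0.60 (adjusted p = 0.0604).

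Mxi1 was lower at 8 of 8 sites as deposited (89.6% of all sites), with no overlap of the groups at any (80.9% of all sites). With cyclic loess it was lower at 0 (2.41% of all sites). Its strongest site, 3.77 kb inside the gene (chr19:53314180-53314380), read 633, 556 and 733 in WT and 286, 284 and 385 in KO, a difference of -1.01 ± 0.20. A weaker site 1164 bp before it (chr19:53312815-53313015) had the second lowest difference of the 65: WT read 96.1, 68.3 and 127 and KO 32.9, 28.0 and 17.7. That is -1.85 ± 0.27 (adjusted p = 1.64e-08), lower also with median-of-ratios factors and total signal, and -0.92 ± 0.30 (adjusted p = 0.0643) with cyclic loess. Both sites also overlap the lncRNA Gm30541. At the first start of Mxi1 (chr19:53310406-53310606) the difference was -1.23 ± 0.21, and near the inner start (chr19:53329461-53329661) -1.08 ± 0.21.

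Rptor, the adaptor of mTORC1 and the longest of these genes, was lower at 18 of 18 sites as deposited (89.6% of all sites). With cyclic loess it was lower at 0 (2.41% of all sites). Its strongest site lay 74.1 kb into the gene (chr11:119676932-119677132), with 809, 755 and 745 in WT and 411, 490.4 and 559 in KO, groups apart, at -0.67 ± 0.19 as deposited and 0.03 with cyclic loess. The promoter site that holds the core shown above (chr11:119602838-119603038) read 347, 234 and 386 in WT and 177, 178 and 244 in KO, where the third KO library overlapped the WT range, at -0.67 ± 0.21. The lowest difference in the gene, -1.35 ± 0.25, was 172.6 kb from the start (chr11:119775437-119775637), with 189, 161 and 189 in WT and 65.8, 66.3 and 78.0 in KO, and it stayed lower with median-of-ratios factors and total signal. With cyclic loess it was -0.42 ± 0.18 (adjusted p = 0.196). Prkaa1, the AMPK subunit, fell at both sites as deposited. Its promoter site (chr15:5143510-5143710) read 225, 155 and 309.6 in WT and 105, 98.1 and 144 in KO, a difference of -0.95 ± 0.23 and -0.10 with cyclic loess.

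By position, all 9 sites within 1 kb of a listed start, at 7 genes, were lower in untreated KO as deposited (median -1.07). So were 49 of 52 farther sites (median -0.91), beside 89.6% of all sites. With cyclic loess 0 of 9 and 2 of 52 were lower, beside 2.41% of all sites. The 4 Myc sites have no listed start. The difference between the 2 classes was not tested. Gene medians ran from -1.40 at Egln1 to -0.67 at Arnt, or from -0.57 to 0.17 relative to all sites.

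**Figure D3:**
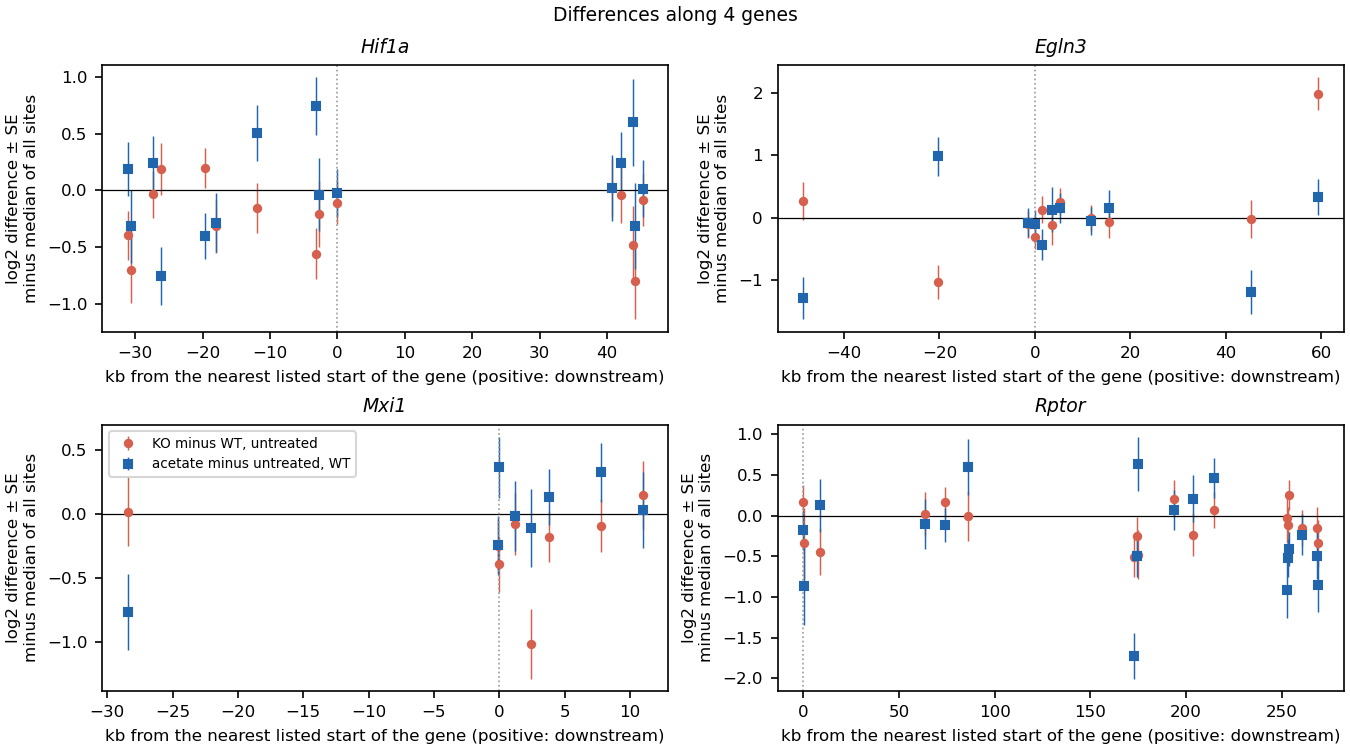
Differences along Hif1a, Egln3, Mxi1 and Rptor by distance from the nearest listed start (kb, positive downstream), minus the median of all sites, with SE bars, for KO minus WT untreated (red circles) and acetate minus untreated in WT (blue squares). Most points lie within 0.5 of 0. Those beyond 1 are Egln3 at 59.3 kb downstream and 20.2 kb upstream and Mxi1 at 2.41 kb in the untreated comparison, and Egln3 at 45.3 kb downstream and 48.5 kb upstream and Rptor at 172.6 kb with acetate in WT.

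With acetate in both genotypes, KO and WT were not told apart at any of the 65 sites. limma called 0 higher and 0 lower (0.0227% and 0.0% of all sites), 2 sites had an unadjusted p under 0.05, and the counts were 0 with each other scaling, with the prefix as a term (0.0328% and 0.00252%) and in the ATAC2 libraries alone. KO values were all above WT values at 3 sites and all below at 28 (4.63% and 30.3% of all sites). The median was -0.16, beside -0.15 over all sites. With 2 libraries a group the standard errors ran from 0.22 to 0.53, so the test could miss differences of the size seen in untreated cells at single sites. At the Hif1a promoter site WT with acetate read 1114 and 647 and KO 718 and 786, at Egln1 403 and 287 and 384 and 338, and at the Myc 5′ end 600.0 and 401 and 418 and 434. At all 3 sites the genotypes overlapped. The sites with an unadjusted p under 0.05 were the Arnt site 24.7 kb inside the gene and the Egln3 site 20.2 kb upstream. At Arnt, KO read 44.3 and 63.4 and WT 27.7 and 24.6, a difference of 1.00 ± 0.35 (adjusted p = 0.993) beside 0.98 ± 0.29 without acetate. At Egln3, KO read 81.0 and 79.9 and WT 151 and 143, a difference of -0.86 ± 0.34 (adjusted p = 0.993) beside -1.87 ± 0.28 without acetate. Both kept the sign they had in untreated cells, and neither passed the test.

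The third comparison asks what acetate did in KO cells. As deposited 37 of 65 sites were higher with acetate and 3 were lower (54.6% and 5.94% of all sites), with a median of 0.72 beside 0.61 over all sites. With cyclic loess the split was 8 higher and 10 lower (11.5% and 16.7%). It shares the untreated KO libraries with the first comparison, so a site low in them reads as a rise here. All untreated KO libraries are ATAC1 and all acetate libraries ATAC2, so within KO acetate and prefix cannot be told apart, and with the prefix as a term, estimated from untreated WT alone, 23 sites were higher and 0 lower (27.3% and 2.53%). Groups did not overlap at 45 sites in the higher direction and 6 in the lower one (69.8% and 8.15%). Without KO acetate 1 there were 23 higher and 1 lower, and 1 lower without KO untreated 3. By gene, sites called higher were 11 of 15 at Hif1a, 7 of 8 at Mxi1, 6 of 11 at Egln3, 5 of 18 at Rptor, 2 of 4 at Myc, 1 of 4 at Arnt, both at Egln1 and at Prkaa1, and the Mxd1 site.

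The rises that were called under each of the 3 other scalings were at the Hif1a site 3.11 kb upstream (KO 52.1, 50.4 and 55.6 untreated and 194 and 172 with acetate, 1.78 ± 0.25), a Hif1a site 31.1 kb upstream (1.25 ± 0.24), the Egln3 site 20.2 kb upstream (16.5, 16.8 and 28.4 and 81.0 and 79.9, 1.96 ± 0.31), Mxi1 at its first start (1.43 ± 0.24) and 2.41 kb beyond (1.89 ± 0.31), Prkaa1 1.91 kb inside the gene (1.46 ± 0.25) and Rptor 8.75 kb inside it (1.53 ± 0.32). At these sites all acetate libraries lay above all untreated KO libraries. With the prefix as a term on the deposited scale the Prkaa1 rise was 0.70 ± 0.38 (adjusted p = 0.159), and the other 6 were still called. With cyclic loess and the prefix together, limma called the Hif1a site 3.11 kb upstream, the Egln3 site and Mxi1 at its first start. The Mxi1 site 2.41 kb beyond then read 0.28 (adjusted p = 0.709) and Prkaa1 -0.025. Neither these nor the Rptor site and the Hif1a site 31.1 kb upstream were called in that fit. The falls were at the Egln3 site 59.3 kb downstream (105, 105 and 161 untreated and 60.5 and 45.3 with acetate, -1.19 ± 0.29), the Arnt site 24.7 kb inside the gene (95.4, 96.2 and 114 and 44.3 and 63.4, -0.92 ± 0.32) and the Rptor site 172.6 kb from the start (65.8, 66.3 and 78.0 and 43.5 and 45.3, -0.64 ± 0.28). All 3 were called with each other scaling. The Egln3 fall was -0.97 (adjusted p = 0.0847) with the prefix as a term. The Arnt fall was lost with the prefix as a term, where it read 0.37 ± 0.48, and without KO untreated 3 (-0.84, adjusted p = 0.0537) or KO acetate 1 (-0.67, adjusted p = 0.182). The Rptor fall was lost in 5 of 10 fits that left out 1 library (adjusted p from 0.0592 to 0.163). It was also lost with the prefix as a term (-0.76 ± 0.44, adjusted p = 0.176) and with the replicate block (-0.68, adjusted p = 0.0528). With cyclic loess and the prefix together, limma called the Rptor and Egln3 sites lower.

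In WT cells acetate changed few of these sites: 2 were higher and 4 lower (2.91% and 3.02% of all sites), with a median of -0.07 beside -0.03 over all sites, and 3 higher and 5 lower with cyclic loess (4.43% and 4.07%). Groups did not overlap at 12 sites in the higher direction and 14 in the lower one (16.1% and 15.3%), and with the prefix as a term 1 site was called higher and 1 lower (3.92% and 1.04%). Sites called lower numbered 10 without the ATAC2 library of untreated WT and 1 without any other single WT library; those called higher numbered 0 without KO untreated 1, either acetate WT library or either ATAC1 library of untreated WT. The clearest change was a fall at the Rptor site 172.6 kb into the gene. Untreated WT read 189, 161 and 189 there and WT with acetate 58.5 and 47.0, with no overlap. The difference was -1.75 ± 0.28 (adjusted p = 4.86e-06), and it passed in all 20 alternatives, from -1.91 to -1.60. The ATAC2 library of untreated WT sat with the other untreated WT libraries (log2 0.12 from their mean), and with the prefix as a term the difference was -1.83 ± 0.35. The next site, after a gap of 1729 bp (chr11:119777367-119777567), had a difference of -0.53 ± 0.26, and the one 354 bp beyond that (chr11:119777922-119778122) 0.61 ± 0.33, neither called.

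The rises with acetate in WT were at Egln3 and Prkaa1. At the Egln3 site 20.2 kb upstream untreated WT read 91.2, 75.3 and 61.9 and WT with acetate 151 and 143, with both acetate libraries on top. The difference was 0.95 ± 0.31 (adjusted p = 0.0419), 1.23 ± 0.38 (adjusted p = 0.0306) with the prefix as a term. It stayed positive but missed the threshold in 8 of 10 fits that left out 1 library, with 0.82 to 1.09 (adjusted p from 0.0537 to 0.365). At Prkaa1, 1.91 kb inside the gene (chr15:5145669-5145869), untreated WT read 139, 114 and 213 and WT with acetate 274 and 246. The ATAC2 library was the highest of the untreated ones there, and the difference of 0.79 ± 0.25 (adjusted p = 0.0366) became 0.28 ± 0.31 with the prefix as a term. It missed the threshold in 6 of 10 fits that left out 1 library (0.59 to 0.87, adjusted p from 0.0517 to 0.38). The Hif1a site 3.11 kb upstream read 152, 127 and 143 untreated and 258 and 206 with acetate, a difference of 0.71 ± 0.25 (adjusted p = 0.0741) that was called with each other scaling, at 0.74, 0.75 and 0.74. The Hif1a site 216 bp beyond it (chr12:73905071-73905271) read 99.9, 62.3 and 44.2 and 52.3 and 73.7, a difference of -0.07 ± 0.32.

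The other 3 falls in WT were at sites where the ATAC2 library of untreated WT lay between the other untreated WT libraries and the acetate ones. At Egln3 45.3 kb downstream (chr12:54158492-54158692) untreated WT read 101, 79.4 and 46.4 and WT with acetate 33.8 and 27.4, a difference of -1.22 ± 0.34. At Egln3 48.5 kb upstream (chr12:54252296-54252496) they read 116, 95.4 and 35.4 and 27.7 and 30.2, a difference of -1.31 ± 0.34. At Hif1a 26.2 kb upstream (chr12:73881557-73881757) they read 293, 254 and 137 and 117 and 135, a difference of -0.79 ± 0.25. No WT library with acetate is ATAC1, so the prefix term rests on that 1 untreated library. With the prefix as a term the 3 differences were -0.59 ± 0.42, -0.28 ± 0.41 and -0.13 ± 0.31, none called. They also missed the threshold in 4, 4 and 8 of 10 fits that left out 1 library, at -1.36 to -0.97, -1.37 to -0.99 and -0.89 to -0.57 (adjusted p up to 0.199, 0.159 and 0.395). The Hif1a site 887 bp before the last one (chr12:73880469-73880669) read 398, 329.5 and 347 and 409 and 421, a difference of 0.22 ± 0.23.

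**Figure D4:**
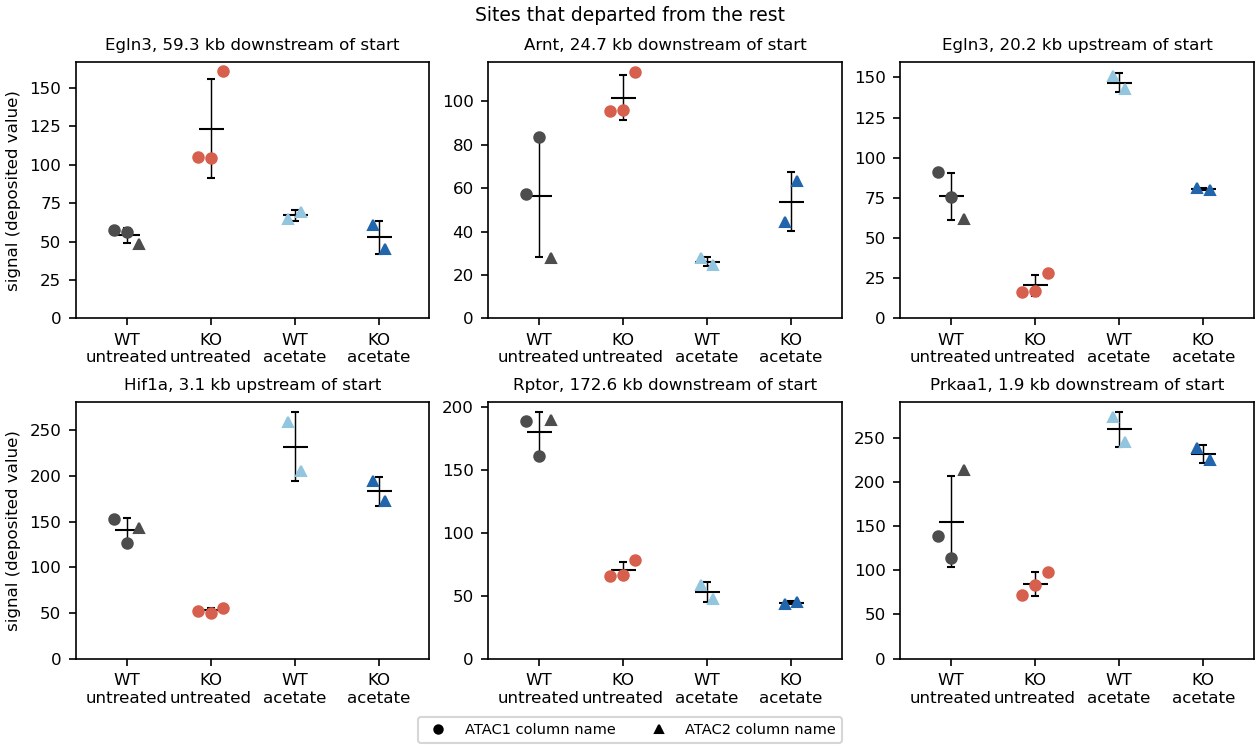
Deposited signal by library (points, circles for ATAC1 and triangles for ATAC2 column names) with group mean and SD (bars; 3 untreated and 2 acetate libraries per genotype) at 6 sites of 5 genes, each named by its distance from the gene's start. The Egln3 site 59.3 kb downstream is high in the 3 untreated KO libraries and in no other, and the Rptor site is high in the 3 untreated WT libraries and in no other.

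Whether acetate changed the genotype difference was tested as an interaction. This interaction contains the untreated difference with its sign reversed, and the table is taken as selected on these samples. Its calls and p-values are therefore not independent evidence, at the positive sites or at the negative one. As deposited it was positive at 15 of 65 sites and negative at 1 (19.5% and 3.61% of all sites), with a median of 0.76 beside 0.67 over all sites. With cyclic loess 0 sites were positive and 1 negative (0.139% and 7.36%), 3 had an unadjusted p under 0.05, and the positive count was 0 with the 2 other scalings too, and also as deposited without KO acetate 1. The negative site was that of Egln3 59.3 kb downstream, at -1.50 ± 0.41 (adjusted p = 0.0137) as deposited and -2.29 ± 0.29 (adjusted p = 0.000428) with cyclic loess. Its signal was 124 ± 32.2 (SD, n = 3) in untreated KO, 54.1 ± 4.77 (n = 3) in untreated WT, 52.9 ± 10.8 (n = 2) in KO with acetate and 67.1 ± 3.46 (n = 2) in WT with acetate. It missed the threshold without WT acetate 2 (-1.45, adjusted p = 0.0569) or without the unnumbered KO acetate library (-1.29, adjusted p = 0.0539). With the prefix as a term 22 sites were positive and 1 negative (28.8% and 4.11%). An offset between ATAC1 and ATAC2 that is unequal in KO and WT would give the same interaction, and the 2 cannot be told apart here.

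Across the 4 groups, untreated KO had the lowest mean at 56 of the 65 sites and the highest at 2, untreated WT the highest at 37 and the lowest at 0, and WT with acetate the highest at 22, all on the deposited scale. This ranking was not made over all sites, of which limma called 89.6% lower and 9.07% higher in untreated KO than in untreated WT. Summed over its 15 sites, mean Hif1a signal was 2089 in untreated KO, 3284 in KO with acetate, 3711 in WT with acetate and 3895 in untreated WT. At Myc the order was the same, with 944, 1404, 1524 and 1541. At Rptor it was 2212, 2697, 3173 and 3863. KO with acetate was not tested against untreated WT.

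The genes whose pattern over the 10 libraries was most like that of the strongest Hif1a site were Wnt5b, Ezr and Nup153 (Pearson r of log2 signal 0.991, 0.990 and 0.988), against a median r of 0.612 over all sites. For the strongest Myc site they were Slc35a1, Rps27l and Wasl (0.993, 0.992 and 0.992, median 0.699). These correlations share each library's scaling and are a description. Mtor had no site to compare.

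A list of 71 other genes of these pathways had a site at 64, with 189 sites in all. In untreated KO, 9 sites were higher and 176 lower as deposited (median -0.79), beside 9.07% and 89.6% of all sites, and 9 and 5 with cyclic loess, beside 9.35% and 2.41%. In the HIF list, all 14 genes had sites, with 5 higher and 33 lower of 38. Arnt2, a relative of Arnt, was higher at chr7:84338022-84338222 with 51.2 ± 14.2 in KO and 18.1 ± 7.30 in WT (n = 3 each, 1.48 ± 0.36). In the mTOR list, 4 were higher and 79 lower of 85 sites at 33 of 36 genes. Depdc5, a subunit of the GATOR1 complex that restrains mTORC1, was higher at chr5:32869636-32869836 with 272 ± 66.4 in KO and 94.2 ± 25.0 in WT (1.52 ± 0.23), and with acetate it stood in KO and WT at 63.0 ± 3.76 and 74.3 ± 5.06 (n = 2 each). Mapkap1, a subunit of mTORC2, was higher at chr2:34536987-34537187 (2.18 ± 0.45), and Sesn1, a sestrin that restrains mTORC1, at chr10:41816081-41816281 (1.18 ± 0.30). These 4 were picked after their values were seen, and all 4 are sites inside genes. The AMPK list had 0 higher and 38 lower of 39 sites at 7 of 10 genes, and the MYC and MAX list 0 and 26 of 27 at 10 of 11, with 0 and 1 for each with cyclic loess.

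With acetate in both genotypes 0 of the 189 sites were called by limma, and 1 had an unadjusted p under 0.05. In KO, where acetate and prefix cannot be told apart, 92 were higher and 7 lower with acetate as deposited (54.6% and 5.94% of all sites). With cyclic loess these numbered 19 and 27 (11.5% and 16.7%). In WT 3 were higher and 5 lower with acetate (2.91% and 3.02%), and 3 and 11 with cyclic loess (4.43% and 4.07%). In the interaction 39 of them were positive and 2 negative on the deposited scale (19.5% and 3.61%), and cyclic loess left 0 positive and 7 negative (0.139% and 7.36%). Listed genes without a site were Akt1s1, Rragb and Eif4ebp1 of the mTOR list, Prkaa2, Prkag3 and Stk11 of the AMPK list, and Mxd4 of the MYC and MAX list.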

How the data were processed

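ATAC-seq signal was deposited by the authors as 1 table of 39657 sites and 10 libraries, in values that are whole multiples of 1 step per library (largest deviation from a whole number of steps 2.9e-11). Per the submitters' processing notes, the build was GRCm38 and the tools, with no role or order given, included Genrich, deepTools 3.5.1, DESeq2, BWA 0.7.16a, DESeq, DiffBind 3.6.1, FastQC 0.11.5 and Picard 2.10.9. The step may be 1 read divided by a factor, which no source used states, so the deposited values were not treated as counts and no count model was fitted.

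Sites were assigned to the nearest protein-coding gene body of the RefSeq gene table (GRCm38.p6), within 50 kb. limma 3.58.1 (R 4.3.3, trended and robust) was fitted to log2(value + 1) with a mean for each of 4 groups over all 10 libraries and 39657 sites, without a filter. Differences are given ± SE on that scale, which understates changes of low values, and p-values carry the Benjamini-Hochberg adjustment of the whole table, with calls under 0.05. The script was tested on simulated data. Python 3.11.15, numpy 2.4.6, pandas 2.3.3 and matplotlib 3.10.9 served for summaries and figures.

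The genes and lists were chosen with earlier results of these data known. Sites named per gene are the one with the highest mean log2 value, the one with the smallest untreated p after cyclic loess, and any site higher in untreated KO. Egln3 sites at 54224014, 54158492 and 54252296, Hif1a at 73881557 and Prkaa1 at 5145669, and other sites given by position beside these, were named after their values were seen. Alternatives were 3 other scalings, pseudocount 8, a mean value of at least 20, no trend, leaving out each library, a replicate block, the prefix as a term, either prefix alone, and other distance limits. The replicate numbers are not stated to pair libraries, so they were not treated as pairs. Correlations of deviations of same-numbered libraries ran from -0.01 to 0.32. They cannot decide the pairing, since deviations mirror each other where a group has 2 numbered libraries and no unlike-numbered libraries were compared.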

Additional observations from a re-analysis of the deposited data

Results flagged for a closer look

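As deposited, limma's interaction test called 15 of the 65 sites positive and 1 negative, beside 19.5% and 3.61% of all sites. The interaction contains the untreated difference of a table taken as selected on these samples, so its p-values are not independent evidence. At these 16 sites the effect of acetate differed between KO and WT (adjusted p under 0.05), given as the log2 effect in KO minus that in WT. At Hif1a it was 1.09 at chr12:73876667-73876867, 1.70 at chr12:73877077-73877277, 1.06 at chr12:73904654-73904854, 0.77 at chr12:73907723-73907923 and 1.69 at chr12:73951988-73952188. At the hydroxylase genes it was 1.29 at chr8:124944559-124944759 and 1.15 at chr8:124949309-124949509 for Egln1, and -1.50 at chr12:54144463-54144663 and 1.08 at chr12:54203791-54203991 for Egln3. In the MYC network it was 0.93 at chr15:62037808-62038008 for Myc, and 1.09 at chr19:53310406-53310606, 2.02 at chr19:53312815-53313015 and 1.11 at chr19:53329461-53329661 for Mxi1. At Rptor it was 1.43 at chr11:119611550-119611750, 1.11 at chr11:119775437-119775637 and 0.87 at chr11:119856157-119856357. Of the 15 positive values 0 were called with median-of-ratios, total signal or cyclic loess scaling, while the negative Egln3 value was called with all 3 (-2.14, -2.04 and -2.29). With cyclic loess 0.139% of all sites were positive and 7.36% negative. The number of positive sites was 0 without KO acetate 1, 2 without KO untreated 1, 3 without KO untreated 2, WT untreated 1 or WT acetate 2, 9 without WT acetate 1 or the unnumbered KO acetate library, 20 without KO untreated 3, 22 without the unnumbered WT library and 28 without WT untreated 2. Over all 39657 sites the positive count ran from 126 without KO acetate 1 to 16081 without WT untreated 2. With the column-name prefix as a term 22 sites were positive (28.8% of all sites), 12 of them among these 15.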

How the results depend on the processing

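Counts are of the 65 sites unless stated. Untreated KO against WT gave 62 lower and 2 higher. Lower sites numbered 5 with median-of-ratios, 8 with total signal, 2 with cyclic loess, 3 with cyclic loess and the prefix as a term (chosen after seeing the data), and 41 of the 42 sites in gene bodies. Higher sites numbered 1 with the replicate block, 1 with the prefix, 1 in gene bodies and 1 within 10 kb of them. Leaving out 1 library gave 57 to 63 lower and 1 to 2 higher, with 1 higher without the unnumbered untreated WT library. Acetate KO against WT gave 0 in every alternative. Acetate in KO (37 higher, 3 lower) gave 8 higher and 10 lower with median-of-ratios, 12 and 8 with total signal, 8 and 10 with cyclic loess, 23 and 0 with the prefix, 8 and 5 with loess and prefix, and 23 higher in gene bodies; leaving out 1 library gave 23 to 41 and 1 to 3. Acetate in WT (2 higher, 4 lower) gave 1 lower with total signal, 1 and 1 with the prefix, 2 lower with ATAC2 alone, 1 higher without trend, 5 higher with loess and prefix, and 1 and 1 both in gene bodies and within 10 kb; leaving out 1 library gave 0 to 2 and 1 to 10. The interaction (15 higher, 1 lower) gave 0 higher with each of the 3 scalings, 1 with loess and prefix, and 0 lower in gene bodies and within 10 kb; leaving out 1 library gave 0 to 28 and 0 to 1. With the replicate block, which the labels do not tie to a shared source, acetate in WT gave 11 lower and the interaction 33 higher. Over all 39657 sites the same fit gave 3570 and 15816.

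Each result at a named site was fitted in 19 or 20 alternatives. Of 105 such results, 55 took both signs over these and the deposited scale, most of them with no call on either side. Listed here are the 19 that were called, as deposited or in the alternative, where the sign changed (34 values, 3 of them called in the alternative). In untreated cells, in the order median-of-ratios, total signal and cyclic loess, KO minus WT became 0.15, 0.065 and 0.21 at Hif1a 73881557, 0.16, 0.076 and 0.018 at Hif1a 73888118, 0.13, 0.045 and 0.028 at Rptor 119676932, and 0.20, 0.11 and 0.15 at Myc 61985388. At Arnt 95434234 it became 0.10 and 0.0098 with the first pair. With cyclic loess it was 0.039 at Egln3 54158492, 0.13 at Mxd1 and 0.025 at Prkaa1 5145669. With loess and prefix it was 0.13 at Egln1 124949309, 0.20 at Myc 61985388, 0.24 at Mxd1, 0.15 at Prkaa1 5143510 and 0.29 at Prkaa1 5145669. Acetate in KO became -0.51 (adjusted p = 0.00971) and -0.41 (0.0315) at Hif1a 73888118 with median-of-ratios and total signal, and -0.38 (0.0432) at Rptor 119676932 with median-of-ratios, all by limma. With the prefix it became 0.37 at Arnt 95458949, -0.090 at Egln1 124949309 and -0.014 at Prkaa1 5143510. With loess and prefix it became -0.39 at Egln1 124944559, -0.63 at Egln1 124949309, -0.12 at Myc 62037808, -0.21 at Mxd1, -0.70 at Prkaa1 5143510 and -0.025 at Prkaa1 5145669. The 3 scalings set the centre of all differences near 0 by construction; beyond that the cause was not tested.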

Other observations

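Beyond 50 kb the Myc locus went on: 40 further sites had Myc as nearest protein-coding body, 53.5 to 859.3 kb away, and 14 of them lay in the lncRNA Pvt1. In untreated KO 10 of these 40 were higher and 30 lower as deposited by limma (median -0.73), beside 9.07% and 89.6% of all sites, and 10 and 0 with cyclic loess, beside 9.35% and 2.41%, while the 4 sites within 50 kb gave 0 higher and 4 lower. With acetate 16 were higher and 12 lower in KO, beside 54.6% and 5.94% of all sites (3 and 17 with cyclic loess, beside 11.5% and 16.7%). Within KO acetate and prefix cannot be told apart. In WT 0 were higher and 8 lower with acetate, beside 2.91% and 3.02% (0 and 7 with cyclic loess, beside 4.43% and 4.07%). With acetate in both genotypes 0 of the 40 were called and 2 had an unadjusted p under 0.05. The interaction was positive at 3 and negative at 5, beside 19.5% and 3.61%, or 0 and 7 with cyclic loess, beside 0.139% and 7.36%. These sites were looked at after the values near Myc were seen, and the difference between the near and the far sites was not tested.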
